A study of Mus musculus with 6 samples.

Results

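AP-1 and EGR transcription factors are the classic products of immediate early genes, here taken as the FOS family (Fos, Fosb, Fosl1, Fosl2), the JUN family (Jun, Junb, Jund) and Egr1, Egr2 and Egr3. They were chosen by gene symbol from a deposited table of 20896 transcripts with 1 per gene, and 9 of the 10 were found in it. Egr1 was not analysed here. All 9 had enough reads to be tested, among 16683 transcripts in all.

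FOS and JUN proteins carry a basic leucine zipper. JUN proteins pair with each other or with FOS proteins, FOS proteins need a JUN-type partner, and the pairs bind the AP-1 element in DNA. EGR proteins bind GC-rich sites through zinc fingers. Most of these genes are switched on within minutes by growth factors through ERK kinases, the serum response factor SRF and its ternary complex partners, or by cyclic AMP through protein kinase A (PKA) and CREB, and their messages are short-lived. In the kidney collecting duct vasopressin acts through cyclic AMP and PKA.

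The libraries were made from clones of mpkCCD, an immortalised mouse line of the kidney cortical collecting duct. There were 3 clones labelled PKA dKO, for a double knockout of PKA, and 3 Control clones, each a single clonal line with 1 library of total RNA depleted of ribosomal RNA. Clones of both groups were grown on permeable supports for 4 days in medium with 2% serum, insulin, dexamethasone, triiodothyronine, epidermal growth factor, selenite and transferrin, and then for 3 days in medium without serum or hormones that held 0.1 nM dDAVP (desmopressin), an analog of vasopressin that acts on the V2 receptor. No library without dDAVP and no early time after its addition was analysed here, so the values are levels under sustained exposure and not an induction. Which genes were edited is not written in the labels, nor how the Control clones were made.

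The libraries held 28596444 to 42515838 reads in the table. The genes of the catalytic subunits of PKA, Prkaca (alpha) and Prkacb (beta), were taken as a check of the label. Prkaca had 7.52 ± 0.92 CPM (reads scaled by library size; SD, n = 3) in PKA dKO clones and 99.8 ± 29.6 CPM in Control clones, and Prkacb had 103 ± 3.43 CPM in PKA dKO and 121 ± 14.6 CPM in Control clones. The Prkaca message was thus reduced (log2 fold change -3.69; adjusted p = 1.62e-05 by limma), and for Prkacb no difference was detected (-0.23; adjusted p = 0.937 by limma), so the Prkacb level does not check the double knockout of the label. Among markers fixed by name, the 4 epithelial genes Cdh1, Epcam, Krt8 and Krt18 summed to 3828 to 4138 CPM in PKA dKO and 4175 to 4590 CPM in Control clones, and the 11 principal-cell genes to 1230 to 1341 CPM in PKA dKO and 1140 to 1737 CPM in Control clones. Of the principal-cell genes, Aqp2 was at 1.82 to 3.39 CPM in PKA dKO clones and 139.9 to 399 CPM in Control clones, and Tfcp2l1, which made up most of the sum in PKA dKO clones, went the other way at 735 to 776 CPM in PKA dKO and 404 to 639 CPM in Control clones, while Aqp3 and Elf5 were under 2 CPM in every clone. The 3 fibroblast markers in the table (Col3a1, Pdgfra, Thy1) together reached no more than 2.91 CPM in any PKA dKO clone and 4.78 CPM in any Control clone. The 4 intercalated-cell markers summed to 18.01 to 43.4 CPM in PKA dKO and 23.9 to 43.8 CPM in Control clones, mostly Atp6v1b1, and the 3 endothelial markers to 0.898 to 4.403 CPM in PKA dKO and 1.44 to 4.26 CPM in Control clones. The 2 leukocyte markers in the table summed to 34.2 to 68.8 CPM in PKA dKO and 37.5 to 59.0 CPM in Control clones, nearly all Csf1r, with Ptprc at 0.842 to 2.04 CPM in PKA dKO and 2.05 to 3.67 CPM in Control clones. PKA dKO clone 3 and Control clone 1 stood apart: 2363 and 2443 transcripts were without a read in them, the other 4 libraries having 863 to 1045 such transcripts, and they lay on one side of the first principal component, which held 68.1% of the variance. Calls and directions that changed without them are given with and without them.

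The promoters of the members that the results turn on, and of Fos and Egr2 as the members with the most cyclic AMP response element half-sites, are printed here because PKA acts on this class of genes through CREB. RefSeq promoters (GRCm38.p6) were found for 7 of the 9 members, not for Fosl1 and Egr3. Each line gives the 250 bases before the start, read 5′ to 3′ on the gene's strand. Capitals mark the cyclic AMP response element (CRE) half-site TGACG or its reverse complement CGTCA, the AP-1-like site TGACATCA, and the CArG box that SRF binds. The full CRE TGACGTCA holds the half-site on both strands, and TGACATCA does not hold it.
Jun, chr4:95052223-95052472, minus strand: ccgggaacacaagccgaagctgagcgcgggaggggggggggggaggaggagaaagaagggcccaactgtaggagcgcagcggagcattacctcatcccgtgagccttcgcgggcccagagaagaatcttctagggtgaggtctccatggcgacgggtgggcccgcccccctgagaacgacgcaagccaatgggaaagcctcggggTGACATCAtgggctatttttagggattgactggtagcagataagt
Junb, chr8:84978749-84978998, minus strand: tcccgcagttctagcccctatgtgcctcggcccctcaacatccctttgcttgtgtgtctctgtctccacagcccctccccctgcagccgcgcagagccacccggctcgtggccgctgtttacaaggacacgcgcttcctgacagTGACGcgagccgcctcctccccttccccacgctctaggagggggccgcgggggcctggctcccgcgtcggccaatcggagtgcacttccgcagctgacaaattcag
Fos, chr12:85473640-85473889, plus strand: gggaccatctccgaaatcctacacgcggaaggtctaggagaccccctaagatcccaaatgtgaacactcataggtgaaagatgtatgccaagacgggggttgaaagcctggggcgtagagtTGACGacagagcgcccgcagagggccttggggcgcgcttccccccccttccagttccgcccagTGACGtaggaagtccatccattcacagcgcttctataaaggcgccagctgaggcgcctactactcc
Egr2, chr10:67537619-67537868, plus strand: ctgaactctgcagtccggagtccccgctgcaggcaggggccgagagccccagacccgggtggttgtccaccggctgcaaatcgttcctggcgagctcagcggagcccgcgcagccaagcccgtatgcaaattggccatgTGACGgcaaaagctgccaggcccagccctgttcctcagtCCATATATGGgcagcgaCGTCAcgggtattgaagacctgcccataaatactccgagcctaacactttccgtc
The Jun window held TGACATCA starting 45 bases before the start, a sequence found on either strand in 2.93% of 32851 promoters of this length. Fos held the half-site at 129 and 66 bases before the start, Junb at 106 and Egr2 at 111 and 55, against 17.8% of all promoters with at least 1, and Fosb, not printed, held 1. None of the 7 windows held the full CRE TGACGTCA (1.55% of all promoters) or the AP-1 element TGANTCA (6.75%). The start used for Fosl2 lay 671 bases from that of the transcript counted. For Jund it was that of the counted transcript, of 2875 bases against 1668 in GENCODE M21. Windows before other starts were not searched, and sites more than 250 bases before the start, in Fos or any other member, would not be seen. The CArG box of Egr2, CCATATATGG, began 72 bases before the start, and 1.47% of all promoters held a CArG box. The EGR motif GCGNGGGCG was found in the Fosb and Fosl2 windows, against 4.70% of all promoters. Both strands were searched for each motif, and a match of letters is not a measured site.

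Jun, Junb and Jund are each a single exon in GENCODE M21, as are 9.99% of the coding transcripts in the table, while the FOS genes have 4 exons, Egr2 has 2 and Egr3 has 3. The AU-rich pentamer ATTTA, an element of short-lived messages, occurred 8 times in the 3′ UTR of Fosl2, 4 times each in those of Fos and Jun, 3 times in Egr2, 2 times in Junb, once each in Fosb, Fosl1 and Jund, and not in the 50-base 3′ UTR annotated for the Egr3 transcript. The median over 17869 transcripts was 1. Per kilobase of 3′ UTR, Fos had 4.91, Junb 4.12, Jun 3.24, Egr2 2.5, Jund 1.88, Fosl2 1.72, Fosl1 1.57, Fosb 0.47 and Egr3 none, against a median of 1.05. The antisense gene Junos overlaps Jun, Gm11175 overlaps Jund and Ccdc85b overlaps Fosl1, and none of these 3 genes was analysed here. The labels do not say whether counting used strand, so their reads and those of the members cannot be told apart.

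Levels of different members were compared per length, as the authors' FPKM over all 6 clones. Jund was highest at 72.0 ± 20.1 FPKM (SD, n = 6), followed by Junb at 53.8 ± 16.3 FPKM and Jun at 14.1 ± 4.08 FPKM. Fos at 4.13 ± 0.89 FPKM, Fosl2 at 3.94 ± 1.64 FPKM and Fosl1 at 2.65 ± 0.68 FPKM came next, then Egr2 at 1.29 ± 0.14 FPKM. Egr3 at 0.29 ± 0.12 FPKM and Fosb at 0.28 ± 0.07 FPKM were lowest. In each clone the JUN messages thus outnumbered the FOS messages, with 12.7 to 13.5 FPKM of JUN family per FPKM of FOS family in PKA dKO clones and 9.34 to 13.9 in Control clones.

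Of the 8 pairs of neighbours in this order, Junb over Jun (3.80-fold), Jun over Fos (3.35-fold), Fosl1 over Egr2 (2.00-fold) and Egr2 over Egr3 (4.54-fold) held in 6 of 6 clones. Each of these reached p = 0.0313 in a two-sided exact sign-flip permutation test on log2(FPKM + 0.01), the smallest that 6 clones allow, and an adjusted p of 0.0625 over the 8 exact permutation tests. The order, and so the pairs, came from these same values with the clones of both groups pooled, so the tests are no separate evidence for it. Jund was above Junb in 5 of 6 clones, with Control clone 2 the exception at 42.0 against 43.5 FPKM (exact permutation p = 0.0625). Fos and Fosl2 (p = 0.5625), Fosl2 and Fosl1 (p = 0.09375) and Egr3 and Fosb (p = 0.875) did not differ beyond the spread over clones by the same exact permutation test. FPKM divides by the transcript length in the table, which for Jund is 2875 bases against 1668 in GENCODE M21. Reads were not recounted on the shorter model, so the level and place of Jund under it were not tested.

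**Figure D1:**
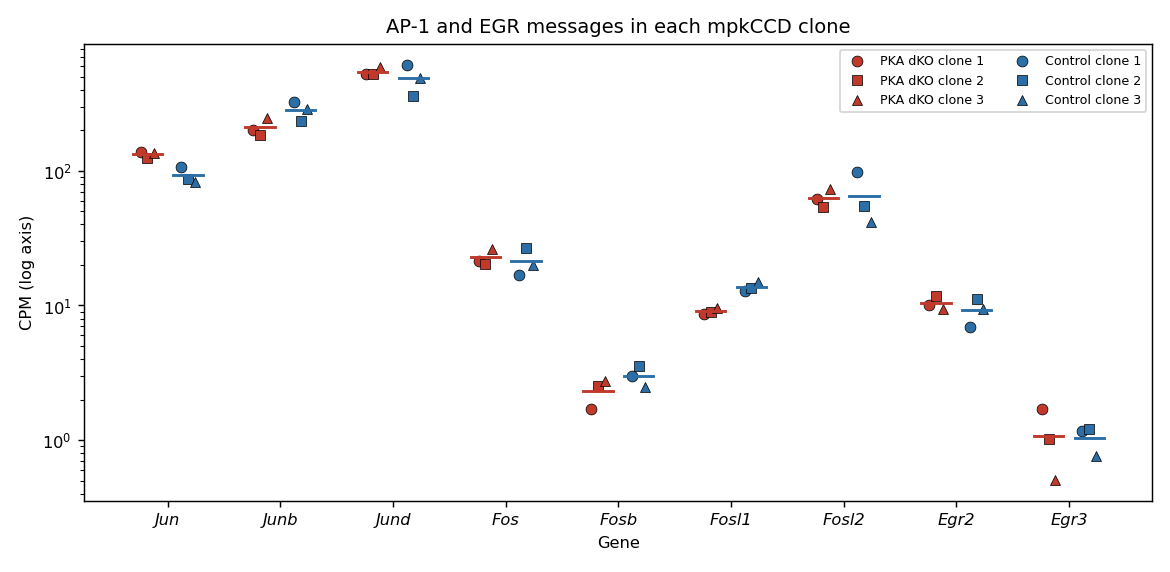
CPM of the 9 members (log axis) in each clone; red marks are PKA dKO and blue marks Control clones, the symbol gives the clone number and the bar the mean of 3 clones. Jun was at 123 to 138 CPM in PKA dKO clones and 82.7 to 107 CPM in Control clones, and Fosl1 at 8.71 to 9.60 CPM in PKA dKO and 12.8 to 14.9 CPM in Control clones, while the groups overlapped for the other 7 members.

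Between the groups, none of the 9 members passed the test (limma-trend, Benjamini-Hochberg adjusted p under 0.05 over all 16683 genes), where 28 genes did (0.168%; 0.0539% higher and 0.114% lower in PKA dKO clones). At an unadjusted p under 0.05 there were 3, Jun above and Fosl1 and Junb below their Control levels, against 6.25% of all genes tested. edgeR's quasi-likelihood test and limma-voom called none and DESeq2 called Jun. For Jun and Fosl1 the values of the groups did not overlap, which was so for 10.8% of all genes tested (5.17% higher and 5.68% lower in PKA dKO clones). The median log2 fold change (PKA dKO over Control) was 0.03 over the members and -0.0016 over all genes tested. Of the members, 5 had positive and 4 negative fold changes. No member passed with a term for the split of libraries (0.426% of all genes did), without PKA dKO clone 1 (0.0779%) or without PKA dKO clone 2 (0.0659%). In bulk RNA, fewer expressing cells and less message per cell cannot be told apart.

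Jun encodes c-Jun, the JUN protein most active as a transcriptional activator, and its gene is known to be driven by AP-1 itself. Jun (ENSMUSG00000052684.4; transcript ENSMUST00000107094.1, GRCm38 chromosome 4, 95049034 to 95052222, minus strand) had 138, 123 and 136 CPM in PKA dKO clones 1, 2 and 3, against 107, 87.6 and 82.7 CPM in Control clones 1, 2 and 3. All 3 PKA dKO clones were above all 3 Control clones, with 3898 to 5554 reads per PKA dKO library and 2676 to 3885 per Control library. The group means were 133 ± 8.07 CPM in PKA dKO and 92.6 ± 13.1 CPM in Control clones (SD, n = 3 each), a log2 fold change of 0.53 (SE 0.13; adjusted p = 0.247 by limma), or 1.44-fold higher (95% interval 1.17 to 1.77).

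The call on Jun depended on the libraries and the tool. Without Control clone 1, which had the highest Control value, the log2 fold change was 0.64 and the limma adjusted p 0.0282 (136 genes called, 0.815%). Without both PKA dKO clone 3 and Control clone 1, it was 0.64 (SE 0.12; adjusted p = 0.00277 by limma; 594 genes called, 3.56%), and DESeq2 gave 0.51 with an adjusted p of 0.0464 (209 genes called, 1.59%). Over the 20 alternatives the log2 fold change of Jun ran from 0.45 to 0.64 and its adjusted p from 0.00277 to 1.00, the highest on FPKM, whose library totals differ. In the authors' deposited table, Jun had a log2 fold change of 0.51 and an FDR of 0.00629, and 3.47% of the 10190 genes listed there had an FDR under 0.05.

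Junb encodes a JUN protein that is a weaker activator than c-Jun and can restrain it. Junb (ENSMUSG00000052837.6; transcript ENSMUST00000064922.5, chromosome 8, 84976909 to 84978748, minus strand) had 202, 184 and 246 CPM in PKA dKO clones 1, 2 and 3, against 324, 236 and 288 CPM in Control clones 1, 2 and 3. The groups overlapped, because PKA dKO clone 3 lay above Control clone 2. The means were 211 ± 31.9 CPM in PKA dKO and 283 ± 44.2 CPM in Control clones (SD, n = 3 each), a log2 fold change of -0.42 (SE 0.16; adjusted p = 0.606 by limma), or 1.34-fold lower (95% interval 1.05 to 1.71). Without PKA dKO clone 3 and Control clone 1 it was -0.42 (SE 0.13; adjusted p = 0.0757 by limma). Over the 20 alternatives it ran from -0.55 to -0.32 and passed in none, whereas the authors' deposited table gave a log2 fold change of -0.45 and an FDR of 0.0287.

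Jund, the JUN member that is typically expressed without stimulation, had 523, 524 and 588 CPM in PKA dKO clones 1, 2 and 3, against 614, 357 and 493 CPM in Control clones 1, 2 and 3. The PKA dKO values lay within the range of the Control values, which spread 1.72-fold. Jund (ENSMUSG00000071076.6; transcript ENSMUST00000095267.4, chromosome 8, 70697739 to 70700616, plus strand) had a log2 fold change of 0.19 (SE 0.19; adjusted p = 1.00 by limma), with a 95% interval of -0.23 to 0.61. Its sign turned without Control clone 2 (-0.016). In Control clones 1, 2 and 3, chromosome 8 genes had median deviations of 0.20, -0.19 and 0.12 (log2). Jund and Junb, both on that chromosome, had the same order in these clones. With chromosome medians removed, the log2 fold change was 0.22 for Jund (SE 0.15) and -0.40 for Junb (SE 0.13, adjusted p = 0.455 by limma). The part of this shift in their levels was not tested.

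Because every JUN message in a library shares that library's scaling, the make-up of the JUN messages was also described. Jun CPM per Junb CPM was 0.683, 0.672 and 0.555 in PKA dKO clones 1, 2 and 3, against 0.331, 0.370 and 0.287 in Control clones 1, 2 and 3. The lowest PKA dKO ratio was thus above the highest Control ratio, and the mean was 0.637 ± 0.071 in PKA dKO and 0.330 ± 0.042 in Control clones (SD, n = 3 each). This ratio was chosen after the values of both genes were seen and was not tested. Jun CPM per Jund CPM overlapped, at 0.264, 0.236 and 0.232 in PKA dKO clones 1, 2 and 3, against 0.175, 0.245 and 0.168 in Control clones 1, 2 and 3. Junb CPM per Jund CPM did not overlap and was not tested. It was 0.39, 0.35 and 0.42 in PKA dKO clones 1, 2 and 3, and 0.53, 0.66 and 0.58 in Control clones 1, 2 and 3. Of the summed FPKM of the 7 FOS and JUN genes, Junb made up 29.0% to 32.6% in PKA dKO and 38.8% to 41.5% in Control clones, Jun 10.4% to 12.0% in PKA dKO and 6.83% to 8.86% in Control clones, and Jund 49.7% to 52.9% in PKA dKO and 40.0% to 46.9% in Control clones. These shares do not overlap between the groups. They sum to a fixed total with the FOS genes, so they are not separate observations. How often shares or ratios of other genes separate the groups was not tested.

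**Figure D2:**
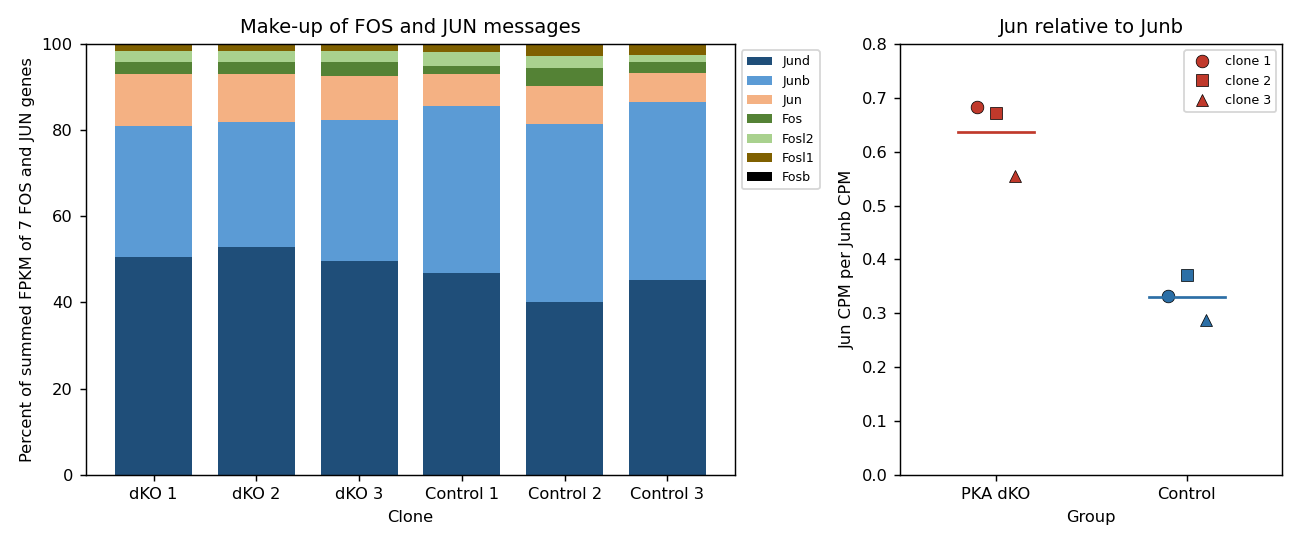
Left, share of each gene in the summed FPKM of the 7 FOS and JUN genes (percent), 1 bar per clone with PKA dKO clones first. Right, Jun CPM per Junb CPM in each clone, with bars at the group means of 0.637 in PKA dKO and 0.330 in Control clones; the FOS family made up 6.89% to 7.33% of the sum in PKA dKO and 6.70% to 9.67% in Control clones.

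Among the FOS genes, Fosl1, which encodes FRA-1, a FOS protein without a strong activation domain that is known to be held up by ERK signalling, stood out. Fosl1 (ENSMUSG00000024912.6; transcript ENSMUST00000025850.5, chromosome 19, 5447703 to 5455945, plus strand) had 8.71, 8.93 and 9.60 CPM in PKA dKO clones 1, 2 and 3, against 12.8, 13.5 and 14.9 CPM in Control clones 1, 2 and 3. All PKA dKO clones were below all Control clones and close to one another, at 282 to 350 reads per PKA dKO library and 411 to 648 per Control library. The means were 9.08 ± 0.46 CPM in PKA dKO and 13.7 ± 1.11 CPM in Control clones (SD, n = 3 each), a log2 fold change of -0.59 (SE 0.18; adjusted p = 0.405 by limma), or 1.51-fold lower (95% interval 1.15 to 1.97).

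The fold change of Fosl1 kept its sign in all 20 alternatives (-0.72 to -0.53) and passed in none, with adjusted p from 0.0787 to 1.00. It was -0.66 without PKA dKO clone 3 and Control clone 1 (adjusted p = 0.0787 by limma) and -0.72 after the median of each chromosome was taken out of each library (adjusted p = 0.191 by limma). The authors' deposited table gave -0.62 with an FDR of 0.0910. Within the FOS messages, Fosl1 made up 18.7% to 22.1% of the summed FPKM in PKA dKO clones and 24.0% to 34.5% in Control clones.

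Fos itself, the member most often used as a marker of acute stimulation and a textbook CREB target, had 21.5, 20.2 and 26.5 CPM in PKA dKO clones 1, 2 and 3, against 16.7, 26.9 and 20.1 CPM in Control clones 1, 2 and 3. The groups overlapped fully. Fos (ENSMUSG00000021250.13; transcript ENSMUST00000021674.6, chromosome 12, 85473890 to 85477273, plus strand) had a log2 fold change of 0.11 (SE 0.20; adjusted p = 1.00 by limma), with a 95% interval of -0.32 to 0.55, so a difference of up to 1.46-fold higher or 1.25-fold lower in PKA dKO clones lies within the interval. The sign turned without Control clone 1, to -0.04, and to -0.14 without PKA dKO clone 3 as well. Genes of chromosome 12 had a median deviation of -0.21 (log2) in Control clone 1, where Fos was lowest. With chromosome medians removed the log2 fold change of Fos was 0.03, and the part of this shift in its level was not tested.

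Fosb, whose product resembles c-Fos and which is also a CREB target, had 1.69, 2.5 and 2.75 CPM in PKA dKO clones 1, 2 and 3, against 3.01, 3.54 and 2.46 CPM in Control clones 1, 2 and 3. The PKA dKO values were mostly below, but Control clone 3 lay among them, and each library held only 68 to 109 reads. Fosb (ENSMUSG00000003545.3; transcript ENSMUST00000003640.3, chromosome 7, 19302696 to 19310051, minus strand) had a log2 fold change of -0.38 (SE 0.34; adjusted p = 1.00 by limma), negative in all 20 alternatives (-0.52 to -0.18).

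Fosl2, which encodes FRA-2, had 61.5, 53.4 and 72.8 CPM in PKA dKO clones 1, 2 and 3, against 98.1, 54.4 and 41.8 CPM in Control clones 1, 2 and 3. The highest and lowest values were both in Control clones, a 2.34-fold spread, and the means were 62.6 ± 9.70 CPM in PKA dKO and 64.8 ± 29.5 CPM in Control clones (SD, n = 3 each). Fosl2 (ENSMUSG00000029135.10; transcript ENSMUST00000031017.10, chromosome 5, 32135801 to 32157842, plus strand) had a log2 fold change of 0.03 (SE 0.26; adjusted p = 1.00 by limma), which averages log values and so differs in sign from the difference of the mean CPM. Its value without single clones ran from -0.23 without Control clone 3 to 0.38 without Control clone 1. Chromosome 5 genes had a median deviation (log2) of 0.15 in Control clone 1, where Fosl2 was highest. It was -0.15 in Control clone 3, where Fosl2 was lowest. With chromosome medians removed the log2 fold change of Fosl2 was -0.0039, and the part of this shift in its level was not tested.

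Per length, Egr2 and Egr3 were the least abundant members together with Fosb, with Egr1 not analysed. Egr2, also called Krox20, had 10.1, 11.7 and 9.34 CPM in PKA dKO clones 1, 2 and 3, against 6.97, 11.2 and 9.42 CPM in Control clones 1, 2 and 3. The lowest value was that of Control clone 1, and the other Control clones lay among the PKA dKO clones. Egr2 (ENSMUSG00000037868.15; transcript ENSMUST00000048289.13, chromosome 10, 67537869 to 67542188, plus strand) had a log2 fold change of 0.20 (SE 0.22; adjusted p = 1.00 by limma). That value rested on single clones: it was 0.011 without Control clone 1 and 0.35 without Control clone 2. The median deviation of chromosome 10 genes (log2) was -0.23 in Control clone 1 and 0.14 in Control clone 2. Egr2 was lowest and highest among Control clones in these. With chromosome medians removed the log2 fold change of Egr2 was 0.17, and the part of this shift in its level was not tested.

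Egr3, which encodes a further EGR factor, was near the detection floor, with 68, 32 and 18 reads in PKA dKO clones 1, 2 and 3, against 42, 37 and 33 reads in Control clones 1, 2 and 3. That is 1.69, 1.01 and 0.51 CPM in PKA dKO clones, whose values enclose the 1.16, 1.21 and 0.76 CPM of Control clones. Egr3 (ENSMUSG00000033730.4; transcript ENSMUST00000035908.1, chromosome 14, 70077445 to 70080157, plus strand) had a log2 fold change of -0.09 (SE 0.56; adjusted p = 1.00 by limma), with a 95% interval of -1.32 to 1.14. Genes of chromosome 14 had a median deviation of -0.44 (log2) in PKA dKO clone 3, where Egr3 was lowest, and 0.28 in Control clone 1, and with chromosome medians removed the log2 fold change of Egr3 was 0.12, and without both of these libraries it was 0.45. Beyond that value, the part of this shift in the level of Egr3 was not tested.

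**Figure D3:**
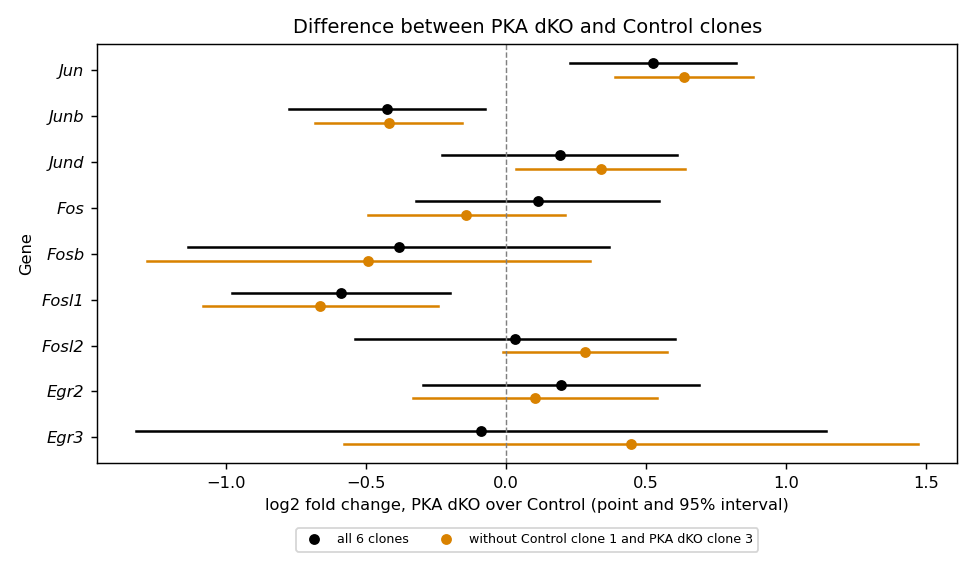
log2 fold change of PKA dKO over Control clones for each member (horizontal axis; points, with 95% intervals from limma-trend), in black over all 6 clones and in orange without Control clone 1 and PKA dKO clone 3. The black intervals of Jun, Junb and Fosl1 do not reach 0, yet none passed after adjustment over all genes, and in orange Jun passed at 0.64.

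The genes whose pattern over the 6 clones was most like that of Jun, by the mean absolute difference of log2 CPM centred on the 6-clone mean among 9534 genes with at least 5 CPM, were Mus81 (0.051), Sh2d3c (0.053) and Rab11fip4 (0.060). Mus81, a structure-specific endonuclease gene, had 56.7, 54.9 and 59.9 CPM in PKA dKO clones 1, 2 and 3, against 47.3, 37.4 and 40.1 CPM in Control clones 1, 2 and 3. For Egr3, the member that varied most, they were Nol4 (0.17), Ifi202b (0.19) and Maml3 (0.21). Nol4 had 11.0, 8.65 and 4.21 CPM in PKA dKO clones 1, 2 and 3, against 8.74, 6.78 and 5.20 CPM in Control clones 1, 2 and 3.

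Genes that work with the AP-1 and EGR factors were counted from 9 lists. Of 113 distinct genes, 108 were tested. None passed with limma-trend, limma-voom or edgeR's quasi-likelihood test, and 18 had an unadjusted p under 0.05, 14 of them lower and 4 higher in PKA dKO clones, against 3.84% lower and 2.4% higher over all genes tested. With chromosome medians removed, the log2 fold changes of some lower genes shrank. Mkl1 went from -0.48 to -0.35, Mapk12 from -0.37 to -0.24 and Atf4 from -0.35 to -0.22, each by the same amount. The median taken out is shared by all genes of a chromosome, so these equal shifts are not separate observations. Gadd45a (-0.79 to -0.62) and Mmp14 (-0.55 to -0.34) shrank too, Plaur barely moved (-0.60 to -0.59) and Ereg grew (-1.04 to -1.07). The counts of lower and higher genes were not retaken in that setting, so the part of chromosome shifts in them was not tested. DESeq2 called 4 (Cyr61, Gadd45b, Gadd45a and Plaur), where it called 1.59% of all genes. Without PKA dKO clone 3 and Control clone 1, limma-trend called 14 (Cyr61, Gadd45b, Mapk8, Plau, Spp1, Pdgfa and Pdgfb higher, or Gadd45a, Myc, Plaur, Vegfa, Atf4, Jdp2 and Mkl1 lower in PKA dKO clones), where it called 3.56% of all genes, and without Control clone 1 alone it called 5 (Cyr61, Plau, Pdgfa and Pdgfb higher, Gadd45a lower), against 0.815% of all genes.

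Upstream of these genes, the MAP kinase cascade had 22 members tested, with a median log2 fold change of -0.0056, and 1 at an unadjusted p under 0.05. It was Mapk12, which encodes the p38 gamma kinase, at 48.4 ± 3.97 CPM in PKA dKO and 62.7 ± 5.50 CPM in Control clones (log2 fold change -0.37, SE 0.13; adjusted p = 0.543 by limma). With chromosome medians removed, Mapk12 was at -0.24 and no longer had an unadjusted p under 0.05 (0.113 by limma). Mapk8, which encodes JNK1, the kinase family named for phosphorylating c-Jun, had 51.15 ± 9.29 CPM in PKA dKO and 39.5 ± 13.8 CPM in Control clones (log2 fold change 0.41, SE 0.22; adjusted p = 0.932 by limma). The value of Mapk8 without PKA dKO clone 3 and Control clone 1 was 0.86 (adjusted p = 4.64e-04 by limma). Mapk8 lies on chromosome 14, whose genes as a whole were low in PKA dKO clone 3 and high in Control clone 1; it was at 0.62 with chromosome medians removed (adjusted p = 0.274 by limma) and at 0.68 without Control clone 1 alone (0.0922).

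SRF and its cofactors had 7 members tested, 2 positive and 5 negative, with a median of -0.16. Mkl1, a cofactor that carries actin signals to SRF, had 60.9 ± 7.63 CPM in PKA dKO and 84.7 ± 6.63 CPM in Control clones (log2 fold change -0.48, SE 0.14; adjusted p = 0.336 by limma, and 0.0272 without PKA dKO clone 3 and Control clone 1), and its groups did not overlap. With chromosome medians removed, Mkl1 was at -0.35 (adjusted p = 0.635 by limma), shifted by as much as Mapk12 and Atf4. Srf itself had 66.45 ± 5.48 CPM in PKA dKO and 59.6 ± 1.42 CPM in Control clones (log2 fold change 0.15; adjusted p = 1.00 by limma).

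Among 12 tested partners with a basic leucine zipper, 5 had positive and 7 negative fold changes (median -0.16). Atf4, the main factor of the integrated stress response, had 488.5 ± 43.7 CPM in PKA dKO and 622 ± 62.9 CPM in Control clones (log2 fold change -0.35, SE 0.15; adjusted p = 0.711 by limma), and Jdp2, a repressor that dimerises with JUN proteins, had 84.8 ± 8.13 CPM in PKA dKO and 104 ± 16.1 CPM in Control clones (-0.29; adjusted p = 0.890 by limma). Both passed without PKA dKO clone 3 and Control clone 1, at -0.48 each (adjusted p = 0.0391 by limma for Atf4 and 0.0246 for Jdp2), while with chromosome medians removed neither passed, at -0.22 for Atf4 (adjusted p = 0.990 by limma) and -0.37 for Jdp2 (0.424). The EGR corepressor genes differed between the groups by less than their spread: Nab2 had 116 ± 10.5 CPM in PKA dKO and 109.5 ± 7.67 CPM in Control clones (log2 fold change 0.08, SE 0.13), and Nab1 had 98.0 ± 1.88 CPM in PKA dKO and 102 ± 12.7 CPM in Control clones (-0.05, SE 0.13). Egr4, the remaining EGR gene, had 10 to 35 reads in PKA dKO and 12 to 35 reads in Control libraries.

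Of 33 other immediate early genes, all tested, 13 had positive and 20 negative fold changes (median -0.19), with 3 higher and 5 lower at an unadjusted p under 0.05 and no overlap between groups for 11, against 2.4% higher, 3.84% lower and 10.8% without overlap over all genes tested. The members of 1 gene family stood on both sides. Gadd45b, a stress-response gene, had 68.9 ± 10.4 CPM in PKA dKO and 43.7 ± 1.77 CPM in Control clones (log2 fold change 0.65, SE 0.14; adjusted p = 0.157 by limma), and its relative Gadd45a, a growth-arrest gene, had 15.9 ± 1.74 CPM in PKA dKO and 27.9 ± 6.22 CPM in Control clones (-0.79, SE 0.19; adjusted p = 0.202 by limma). DESeq2 called both, with adjusted p of 0.00852 for Gadd45b and 0.0116 for Gadd45a, and without PKA dKO clone 3 and Control clone 1 limma gave adjusted p of 0.0162 for Gadd45b and 0.0107 for Gadd45a. Without Control clone 1 alone Gadd45a also passed (-0.91; adjusted p = 0.0442 by limma). Cyr61, named after its values were seen, had 256 ± 42.6 CPM in PKA dKO and 154 ± 43.2 CPM in Control clones (0.75, SE 0.19; adjusted p = 0.247 by limma).

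Among 18 tested genes known as AP-1 targets, 5 had positive and 13 negative fold changes (median -0.19), and 5, all lower, had an unadjusted p under 0.05, against 3.84% lower and 2.4% higher over all genes tested. Plaur, the urokinase receptor gene, had 40.1 ± 6.59 CPM in PKA dKO and 60.2 ± 4.45 CPM in Control clones (log2 fold change -0.60, SE 0.15; adjusted p = 0.229 by limma, DESeq2 adjusted p = 0.0353). Without PKA dKO clone 3 and Control clone 1 its log2 fold change was -0.76 (adjusted p = 0.00146 by limma). Ereg, which encodes the EGF receptor ligand epiregulin, had 6.50 ± 2.35 CPM in PKA dKO and 13.1 ± 4.04 CPM in Control clones (-1.04, SE 0.31; adjusted p = 0.405 by limma). The log2 fold change of Ereg was -0.67 without PKA dKO clone 3 and -0.45 without Control clone 1 as well (adjusted p = 0.372 by limma). The other 3 were Areg (-1.16), Hmga2 (-0.45) and Hmga1 (-0.35), named after their values were seen, while Plau, the urokinase gene itself, stood at 0.41 and Ccnd1, the cyclin D1 gene, at -0.03.

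The 10 tested EGR targets had 6 positive and 4 negative fold changes, with Pdgfb, a platelet-derived growth factor gene, at 119 ± 16.4 CPM in PKA dKO and 87.8 ± 24.5 CPM in Control clones (log2 fold change 0.46, SE 0.19; adjusted p = 0.680 by limma, 0.0420 without Control clone 1 and 0.00672 without PKA dKO clone 3 as well) and the membrane protease gene Mmp14 at 152 ± 36.9 CPM in PKA dKO and 224 ± 65.2 CPM in Control clones (-0.55, SE 0.22; adjusted p = 0.683 by limma). Mmp14 lies on chromosome 14, and its log2 fold change was -0.33 without Control clone 1, -0.31 without PKA dKO clone 3, -0.11 without both and -0.34 with chromosome medians removed. Of genes that act on FOS and JUN products after transcription, none of the 4 ubiquitin ligase genes and none of the 7 tested AU-rich element binding protein genes had an unadjusted p under 0.05 with limma, and edgeR and DESeq2 called none. Rfwd2, which encodes the c-Jun ligase COP1, had 58.2 ± 3.07 CPM in PKA dKO and 47.95 ± 8.82 CPM in Control clones (log2 fold change 0.29, SE 0.15), and its partner Det1 stood at -0.10 (SE 0.16). Zfp36, which encodes the decay factor tristetraprolin, had 18.9 ± 3.60 CPM in PKA dKO and 22.7 ± 3.22 CPM in Control clones (-0.27, SE 0.18), and Tial1 stood at 0.22 (SE 0.13).

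**Figure D4:**
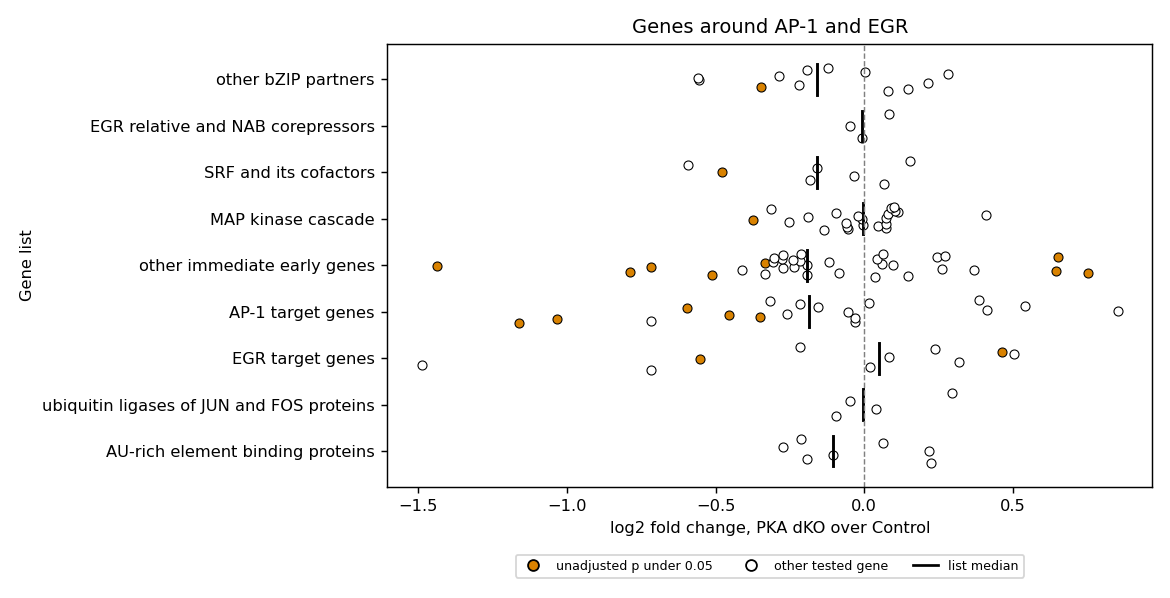
log2 fold change of PKA dKO over Control clones (horizontal axis) for the tested genes of each of 9 lists; each point is a gene, filled where the unadjusted limma p is under 0.05, and the vertical bar is the list's median. Of 108 distinct genes 18 are filled, 14 of them left of 0, and none passed after adjustment over all genes.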

How the data were processed

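RNA of 6 clones was made into stranded total RNA libraries depleted of ribosomal RNA, per the labels' protocols. Per the submitters' processing notes, the tools were edgeR, HOMER 4.8, STAR 2.5.2a and SAMtools with the build GRCm38.p5, their roles not given; the handling of multiply mapped reads and overlapping genes is not stated. The deposited read columns are a signal: the authors scaled each library to a common total. Within a library, values lie on steps of 0.427 to 0.635 scaled reads; dividing by the step left 100% whole (tolerance 0.01). The authors' FPKM columns imply other library totals, so FPKM was used to compare genes within clones and, between the groups, only as an alternative. A second deposited table gives the authors' own log2 fold changes, p-values and FDR, per the file headers.

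Groups were compared with limma-trend (R 4.3.3, limma 3.58.1) using log2 values of TMM-adjusted (edgeR 4.0.16) scaled reads, with a pseudocount of 1 scaled read, about 0.055 CPM, which understates changes of low genes. filterByExpr (minimum 10 reads, total 15) kept 16683 transcripts and left out 4213. Group was the only term, and Benjamini-Hochberg adjustment ran over all genes tested with a threshold of 0.05. CPM comes from recovered reads with TMM. Each clone is 1 library, so p-values weigh the groups against a spread that holds clonal, culture and library differences alike. Libraries of 1 group differed far beyond sampling noise (chi-square per degree of freedom 19.1 to 69.1). The alternatives were other scaling, filters, pseudocounts, FPKM, limma-voom, edgeR's quasi-likelihood test, DESeq2 1.42.0, a clone-number block, leaving out libraries, a term for the libraries that stood apart, and removal of chromosome medians. Genes were named by rule: the members, Prkaca and Prkacb, in each list the 2 genes of at least 1 CPM with the lowest p, and the 3 genes most like Jun and like Egr3. The members, lists and alternatives were chosen with earlier results of these data known.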

Additional observations from a re-analysis of the deposited data

How the results depend on the processing

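Results were recomputed under 20 alternatives. The count of members past the threshold was 0 in 17 of them and 1, always Jun, with DESeq2, without PKA dKO clone 3 and Control clone 1, and, among the fits without 1 clone (0 to 1), without Control clone 1. Of 180 fold changes of members, 162 kept direction and side of the threshold. Directions turned for Fosl2 with edgeR's quasi-likelihood test (-0.049), DESeq2 (-0.055) and chromosome medians removed (-0.0039), and in fits without 1 clone (-0.23 to 0.38), and for Egr3 with edgeR (0.040), DESeq2 (0.035), chromosome medians removed (0.12), without PKA dKO clone 3 and Control clone 1 (0.45), and in fits without 1 clone (-0.48 to 0.38). Fos turned without those 2 libraries (-0.14) and in fits without 1 clone (-0.044 to 0.30), Jund only in fits without 1 clone (-0.016 to 0.38), and Nab1 without the 2 libraries (0.055) and in fits without 1 clone (-0.11 to 0.052). The members' median fold change was 0.02 to 0.10 in the other alternatives and -0.23 to 0.11 without 1 clone, lowest without Control clone 3. The cause was not tested.

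All genes past the threshold numbered 28. There were 17 without scaling factors, 94 on FPKM, 209 with DESeq2, 71 with a term for the split, 594 without PKA dKO clone 3 and Control clone 1, and 11 to 136 without 1 clone, lowest without PKA dKO clone 2, 13 without PKA dKO clone 1, and highest without Control clone 1. The listed genes past it numbered 0, and 4 with DESeq2, 1 with the split as a term, 14 without the 2 libraries and 0 to 5 without 1 clone.

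Clone numbers did not pair the samples: same-numbered clones had correlations of their deviations of -0.36, 0.64 and -0.34. With the clone number as a block, 196 genes and 4 listed genes (Cyr61, Gadd45a, Gadd45b and Ereg) passed, and no member did. Precision is limited for Egr3 (18 to 68 reads) and Fosb (68 to 109 reads).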
